A study of Mus musculus with 30 samples.

Results

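Proteasome subunit mRNAs were taken as every symbol that begins with Psm, a letter from a to g and a digit, and 42 of the 14558 symbols in the deposited tables matched. Of these, 40 had a value in the RNA-seq table of 13904 genes, whose unit is FPKM (reads corrected for gene length and sequencing depth), and 36 had mRNA half-lives, which are listed for 5806 transcripts. Both measures were available for 34 members, FPKM alone for 6 (*Psma4*, *Psmb2*, *Psmb5*, *Psmb10*, *Psmb11* and *Psme1*) and half-life alone for 2 (*Psmb1* and *Psmd2*). *Psmc3ip* matched by name only, since it encodes a factor of meiotic recombination and no proteasome subunit. It is described as a class of its own, but counts, medians, shares and rho values over all members include it unless stated. *Psma8*, *Psmb8*, *Psmb9*, *Psmd10*, *Psme2*, *Psmg1* and *Psmg2* were not analysed here.

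The study asked which mRNAs the RNA-binding protein NANOS2 binds and destabilizes in spermatogonial stem cell (SSC) lines, cultures from testes of 7-day-old mice that grow on fibroblast feeders. Both lines used here carry the *Nanos2* TAG allele, an epitope and EGFP tag fused to the endogenous gene, on 1 copy in the TAG/+ line (line 4) and on both in the TAG/TAG line (line 5). RNA-seq of ribosomal RNA-depleted RNA gave 1 library per line, extracted with QIAzol (TAG/+) or Trizol (TAG/TAG). SLAM-seq, in which 4-thiouridine marks RNA before a chase, gave 12 libraries per line, as 2 technical replicates at 0, 30, 60, 120, 540 and 1440 min, and the authors fitted 1 half-life per transcript and line. Genotype, line and, for RNA-seq, extraction reagent differ together and cannot be told apart, no value has an error between replicates, and no difference between the lines was tested. The study itself treated the RNA-seq of these lines as 2 biological replicates and averaged their FPKM. Its methods also describe 2 biological replicates for SLAM-seq.

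The proteasome is the main protease for ubiquitin-tagged proteins in the cytosol and nucleus. Its barrel-shaped 20S core has outer rings of α subunits, which gate the entrance, and inner rings of β subunits, some of which carry the proteolytic sites. The 19S regulatory particle on its ends consists of a base, whose ATPases unfold substrates, and a lid, which removes ubiquitin, and its subunits are needed in fixed proportions. In mammals, proteasome genes are raised together by the transcription factor NRF1 (encoded by *Nfe2l1*) through antioxidant response elements, and male germ cells also use particular core and activator subunits.

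Promoter windows of 300 bases, from 250 bases before to 50 bases after the RefSeq start site (GRCm38.p6), were held for 36 of the 42 members, in 38 windows. Antioxidant response elements, searched as TGACNNNGC or TGAGNNNGC on both strands, matched in 47.4% of member windows, 30.7% of the 12745 windows of genes with an FPKM and 27.8% of all 32851 windows. The ETS factor site CCGGAAG matched in 39.5% of member windows, against 15.9% and 8.86%, whereas the CCAAT box matched in 34.2%, against 38.1% and 37.4%. A match is a description of the letters and not a bound site. The following 29-base stretches hold such a match within 50 bases before the start site of a core, base or lid subunit gene. For ETS sites they are examples, and other such genes with one, as *Psmc2*, *Psmd6* and *Psmd11*, are not shown. Capitals mark the antioxidant response element for the first 4 and the ETS site (on the opposite strand) for *Psmc1* and *Psmd2*.
*Psmb5*, minus strand, chr14:54618024-54618052: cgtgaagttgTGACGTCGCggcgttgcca
*Psmb6*, plus strand, chr11:70525338-70525366: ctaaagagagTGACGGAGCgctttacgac
*Psmb3*, plus strand, chr11:97703414-97703442: gcgttgacccTGAGAAAGCcagagccggt
*Psmd12*, plus strand, chr11:107479490-107479518: cctgagtggaTGAGCGGGCgacttccggt
*Psmc1*, plus strand, chr12:100110163-100110191: tggtggatgcaCTTCCGGcggtggcgatt
*Psmd2*, plus strand, chr16:20651615-20651643: tccgcagggcgCTTCCGGtctggaggaca
In *Psmd12*, the element (28 bases before the start site) was followed by an ETS site in the reverse orientation (17 bases before it).

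Members had short mRNAs. For 1 coding transcript per gene (GENCODE M21, GRCm38), the median length of members was 1541 nt, against 3046 nt for all genes with an FPKM. Their 3′ UTR was shorter still in proportion, with a median of 312.5 nt (58 to 2842 nt) over the 36 members with a half-life, against 1219 nt over 5762 transcripts, and 29 of the 36 lay below that median. The 7-base consensus of the study for NANOS2, searched as AUGAAAU, as the form AUGAAUU, as the form AUUAAAU and as the form AUUAAUU, matched in the 3′ UTR of 7 of these members (19.4%), against 41.8% of all transcripts. Among the 29 members with short 3′ UTRs, 6.90% had a match, against 21.7% of transcripts below the same limit, and among the 7 others 71.4% had one, against 61.9%. Per kilobase of 3′ UTR, members held 0.345 matches and all transcripts 0.487. The matches below are shown in capitals for *Psma3* and *Psmd11*, which are among the members that differed most between the lines, for *Psmd7* and *Psmd8*, the only short 3′ UTRs with one, and for *Psmf1*, the only member with the AUGAAAU form.
*Psma3*, plus strand, chr12:70994474-70994502: gaccgauuuucAUUAAAUuuugucuuaua
*Psmd11*, plus strand, chr11:80472664-80472692: aauuaaaaaauAUUAAUUuuccuuguugc
*Psmd7*, minus strand, chr8:107580382-107580410: ucaaagauacaAUUAAAUggcuugguuuu
*Psmd8*, minus strand, chr7:29174257-29174285: guuggccguggAUUAAAUaauuuuuaaaa
*Psmf1*, minus strand, chr2:151716687-151716715: uuuacauaaccAUGAAAUucacuauuuua
The first 6 letters of AUUAAAU are also a variant of the polyadenylation signal, and the match in *Psmd7* began 19 bases from the annotated 3′ end.

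The libraries were scaled to 10908790 (TAG/+) and 11738620 (TAG/TAG) reads, a depth at which 100% of 13884 genes came out as whole reads within 0.02. Of 12 markers of undifferentiated spermatogonia, 11 had an FPKM, and their sum was 682 in the TAG/+ line and 1146 in the TAG/TAG line, with *Nanos2* at 27.5 and 23.8. Of the 11, 6 were higher and 5 lower in the TAG/TAG line, and the larger sum came with *Bcl6b* (23.1 and 225), *Etv5* (45.98 and 178), *Ret* (73.2 and 181) and *Gfra1* (56.2 and 111). Feeders had been removed, by depletion per the labels and by sorting per the study's methods. Feeder fibroblast markers were still present, with a sum over 7 of 8 of 379 and 520 FPKM (*Lum* was not analysed here). *Fn1*, a matrix protein gene, made up 254 and 280 of it. Of the 7, 6 were higher in the TAG/TAG line and 1 lower, with *Sparc* (73.9 and 158) and *Dcn* (4.44 and 10.2) past 2-fold. Markers of differentiating and meiotic germ cells (4 of 6 with an FPKM) summed to 68.2 and 47.9. All 4 were lower in the TAG/TAG line, and *Sycp3* (4.59 and 0.632 FPKM, 54 and 8 reads) was past 2-fold. The part of these in the differences below was not tested, and in such bulk RNA fewer cells of a type and less RNA per cell cannot be told apart.

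Proteasome mRNAs were abundant in both lines. Median FPKM of the 40 members was 58.4 in the TAG/+ line and 44.9 in the TAG/TAG line, against 10.2 and 10.5 for all genes, which placed the members' medians above 83.5% and 79.4% of genes. In both lines 23 of 40 members (57.5%) were above the upper quartile of all genes (35.8 and 34.7), where 22.3% of all genes were, and 37 of 40 were above the median in each line. The order of members was much the same in the lines, with a Spearman's rho of 0.97 across the 40 genes (0.93 across all genes), a description since genes are not replicates. The products of the 29 measured constitutive subunits are assembled in fixed proportions, yet their FPKM differed 16.8-fold between the highest and the lowest in the TAG/+ line and 44.6-fold in the TAG/TAG line. When FPKM was recomputed from the recovered reads and the length of 1 coding transcript, a setting chosen after seeing the data, these ranges were 37.2-fold and 98.6-fold, and the orders of the subunits under both lengths had rho values of 0.89 and 0.93. Levels of different genes therefore depend on the length used, and where an order named below turned with the coding length, those values are given beside it. Ratios between the lines do not depend on it.

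**Figure D1:**
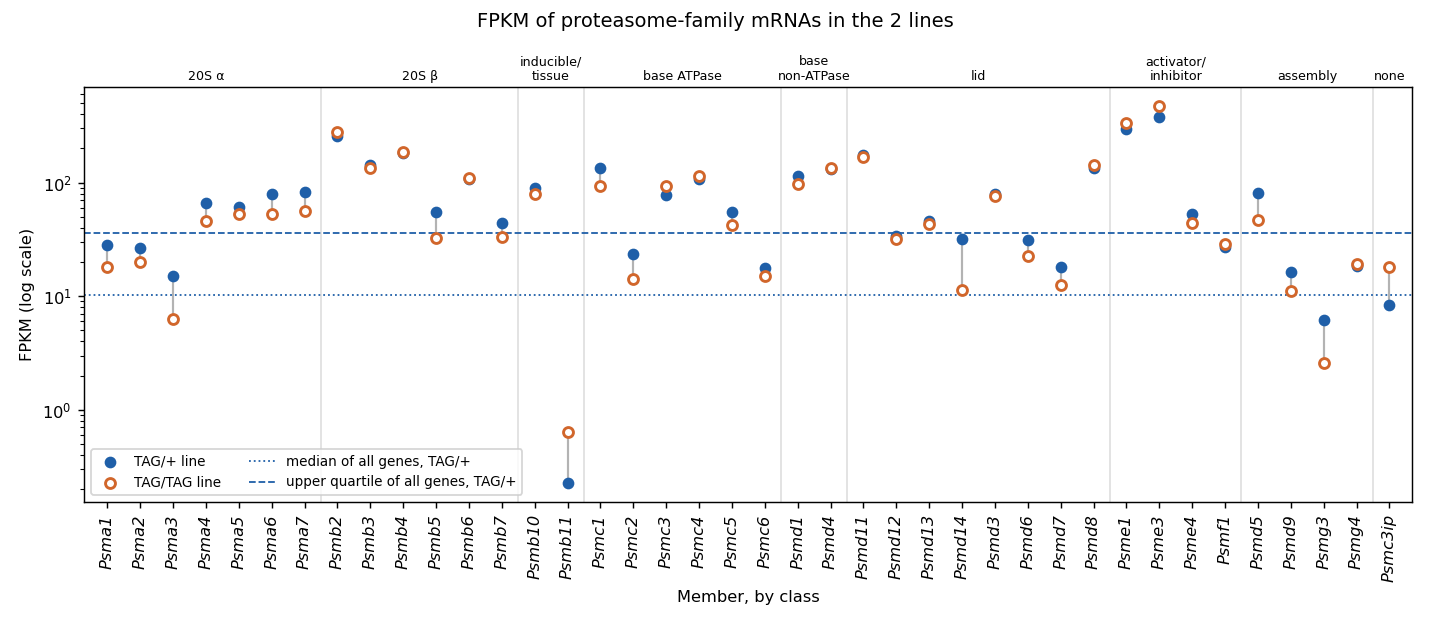
FPKM (vertical axis, log scale) of the 40 members with RNA-seq values, in class order along the horizontal axis, with 1 library per line and a grey bar joining both lines. Most members lie above the dotted median of all genes (10.2 in the TAG/+ line), all 7 α subunits are lower in the TAG/TAG line, and *Psmb11* is near the bottom of the scale.

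The α subunits, which form the outer rings of the core and gate it, were lower in the TAG/TAG line for 7 of 7 genes, where 49.5% of all genes were lower, with a median log2 difference (TAG/TAG minus TAG/+) of -0.55. *Psma7* was the highest, at 82.3 FPKM in the TAG/+ line and 56.0 in the TAG/TAG line, followed by *Psma6*, at 79.6 and 52.4. *Psma3* was the lowest, at 15.2 and 6.30, and was 2.41-fold lower in the TAG/TAG line (175 against 78 reads, 95% exact binomial interval 1.84 to 3.19, which covers counting error only, as do all such intervals here). The difference of *Psma5* was the smallest, from 61.2 to 53.1 FPKM (1.15-fold lower, 1.02 to 1.30), and the other α subunits, *Psma1*, *Psma2* and *Psma4*, had 28.4, 26.8 and 65.7 FPKM in the TAG/+ line and 17.98, 20.1 and 46.2 in the TAG/TAG line. No α subunit had a counting interval that reached 1. Only 53.8% of 50-base words of *Psma4*, 55.4% of those of *Psma5* and 80.4% of those of *Psma3* occur once in the genome, so that reads of copies elsewhere may have been split or lost for these genes, whereas *Psma1*, *Psma6* and *Psma7* were at 100%.

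α-subunit mRNAs were long-lived in both lines. Half-lives of 6 α subunits had medians of 357 min (TAG/+) and 409 min (TAG/TAG), against 224 and 226 min for all transcripts. Of the 6, 5 were above the upper quartile of all transcripts in both lines, where 19.1% of transcripts were. *Psma7* had the longest in the TAG/+ line, at 413 min (432 min in the TAG/TAG line), and *Psma5* the longest in the TAG/TAG line, at 458 min (360 min). *Psma1* was the exception, at 178 min in the TAG/+ line and 349 min in the TAG/TAG line, a 1.97-fold difference that took it from the 30th to the 83rd percentile of all transcripts. The others lay close together in both lines, *Psma3* at 388 and 407 min, *Psma2* at 355 and 411 min and *Psma6* at 351 and 349 min.

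The β subunits form the inner rings. Of 6 β genes with an FPKM, *Psmb2*, *Psmb3*, *Psmb4* and *Psmb6* were above the members' medians in both lines, and *Psmb5* and *Psmb7* were below them. With the coding length (members' medians of 43.6 and 32.4), *Psmb7* was above the median in both lines and *Psmb5* in the TAG/+ line only. *Psmb2* was the highest, at 255.6 FPKM in the TAG/+ line and 281 in the TAG/TAG line, and *Psmb4* had 181 and 187 and *Psmb3* 143 and 134 (105 and 109 against 178 and 166 with the coding length, the reverse order). The genes for the catalytic subunits differed from each other. *Psmb6*, of the caspase-like site, had the highest FPKM of these, at 107 and 109. *Psmb5*, of the chymotrypsin-like site, had 55.0 and 32.4, and *Psmb7*, of the trypsin-like site, 44.3 and 33.2, while with the coding length *Psmb7* (76.5 and 57.4) was above *Psmb5* (46.5 and 27.4) in both lines. *Psmb5* was 1.70-fold lower in the TAG/TAG line (1.46 to 1.97) and *Psmb7* 1.33-fold lower (1.21 to 1.47), whereas the intervals for *Psmb3*, *Psmb4* and *Psmb6* included 1. Unique 50-base words made up 38.8% in *Psmb3*, 44.7% in *Psmb5* and 82.5% in *Psmb7*, and 96.3 to 100% in the other β genes.

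All 5 β subunits with a half-life were above the upper quartile of all transcripts in both lines, where 19.1% of transcripts were. *Psmb1* had 662 min in the TAG/+ line and 764 min in the TAG/TAG line, at the 98th percentile in each. *Psmb3*, *Psmb6* and *Psmb7* changed little, from 580 to 576 min, from 532 to 569 min and from 489 to 496 min, and *Psmb4* was at 476 and 608 min. The shortest β half-life (476 and 496 min) was therefore longer than the longest α half-life in both lines (413 and 458 min), so that the ranges of these classes did not overlap.

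*Psmb10* encodes the inducible subunit that replaces the trypsin-like one in immunoproteasomes, and it had 88.8 FPKM in the TAG/+ line and 79.9 in the TAG/TAG line. Its order against its constitutive counterpart *Psmb7* turned with the length used: it was 2.01-fold and 2.40-fold higher in deposited FPKM, but lower with the coding length (54.1 and 48.7 against 76.5 and 57.4). *Psmb11*, of the thymus proteasome, had 6 and 18 reads (0.228 and 0.637 FPKM), and its ratio of 2.79 had an interval of 1.06 to 8.58. Of the 10 listed genes of antigen presentation and interferon response, which are induced together with immunoproteasome subunits, 8 had an FPKM, with a median log2 difference of -0.14. *Irf1*, a transcription factor of that response, had 199.9 and 137 FPKM. *Nlrc5*, which activates class I genes, was the only one of the 8 past 2-fold, with 0.956 and 3.46 FPKM. Of all genes, 13.5% were past 2-fold higher in the TAG/TAG line.

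In the base of the regulatory particle, the 6 ATPases form 1 ring but spanned 7.60-fold (TAG/+) and 8.10-fold (TAG/TAG) in FPKM. *Psmc1* was the highest in the TAG/+ line, at 134 FPKM (93.4 in the TAG/TAG line), and *Psmc4* in the TAG/TAG line, at 114 (108). With the coding length *Psmc4* was above *Psmc1* in both lines (82.8 and 87.6 against 67.8 and 47.3). Unique 50-base words made up 84.4% in *Psmc1* and 100% in the other ATPase genes. *Psmc6* had 17.6 and 15.2 FPKM, and *Psmc2* 23.3 and 14.1, a 1.65-fold lower value in the TAG/TAG line (1.46 to 1.87). *Psmc3* was higher in the TAG/TAG line, with 77.9 and 93.8 FPKM (1.204-fold, 1.10 to 1.32), while *Psmc5* was lower, with 55.5 and 42.3. ATPase mRNAs therefore differed in both directions, 4 lower and 2 higher in the TAG/TAG line, where 49.5% of all genes were lower. The counting intervals of *Psmc4* (0.98 to 1.14) and *Psmc6* (0.69 to 1.08), as ratios of TAG/TAG over TAG/+, included 1.

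Half-lives of all 6 ATPase mRNAs were above the median of all transcripts in both lines, where 39.8% of transcripts were. *Psmc1* was the longest, at 583 and 521 min, and was the only ATPase above the α-subunit medians in both lines. *Psmc3* and *Psmc5* had near-identical values in each line, 302 and 300 min in the TAG/+ line and 404 and 400 min in the TAG/TAG line. *Psmc4* (320 and 316 min), *Psmc6* (262 and 297 min) and *Psmc2* (268 and 254 min) made up the rest.

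The non-ATPase base subunits are the scaffolds *Psmd1* and *Psmd2* and the ubiquitin receptor *Psmd4*. *Psmd4* had 131 and 135 FPKM and *Psmd1* 114 and 96.7. Half-lives of the 3 were all above the upper quartile of all transcripts in both lines, where 19.1% of transcripts were. *Psmd2* was the longest, at 522 and 595 min. *Psmd1* had 362 and 408 min and *Psmd4* 342 and 385 min.

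The lid held the subunit with the largest FPKM difference between the lines among members. *Psmd14*, the deubiquitinase that removes ubiquitin chains from substrates, had 32.05 FPKM in the TAG/+ line and 11.4 in the TAG/TAG line, 2.82-fold lower (241 against 92 reads, 2.21 to 3.62). Its partner in the lid, *Psmd7*, had 18.03 and 12.5 FPKM and was 1.44-fold lower (1.18 to 1.76). *Psmd11* had 176 and 167 FPKM and *Psmd8* 133 and 142, the highest of the lid, and with the coding length their order was reversed (69.9 and 66.1 for *Psmd11*, 99.8 and 106 for *Psmd8*). Unique 50-base words made up 84.8% in *Psmd11* and 98.6 to 100% in the other lid genes. *Psmd3* (79.9 and 76.2), *Psmd13* (45.9 and 43.1) and *Psmd12* (34.1 and 31.6) were within 1.08-fold between the lines, and *Psmd6* had 31.1 and 22.5 FPKM. In all, 7 of 8 lid subunits were lower in the TAG/TAG line, where 49.5% of all genes were, with a median log2 difference of -0.10, and the counting intervals of 4 of the 7 (*Psmd3*, *Psmd11*, *Psmd12* and *Psmd13*) included 1.

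Lid half-lives ranged from 145 to 390 min in the TAG/+ line and from 223 to 494 min in the TAG/TAG line. *Psmd11* was the shortest of all members in the TAG/+ line, at 145 min, and 1.95-fold longer in the TAG/TAG line, at 282 min. *Psmd14* had 276 and 418 min (1.51-fold longer), so that its half-life was longer in the line in which its FPKM was lower. *Psmd8* was the longest lid subunit in both lines, at 390 and 494 min, *Psmd3* had 287 and 374 min and *Psmd13* 326 and 322 min. *Psmd12* (275 and 293 min), *Psmd7* (246 and 239 min) and *Psmd6* (265 and 223 min) were nearer to the median of all transcripts.

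**Figure D2:**
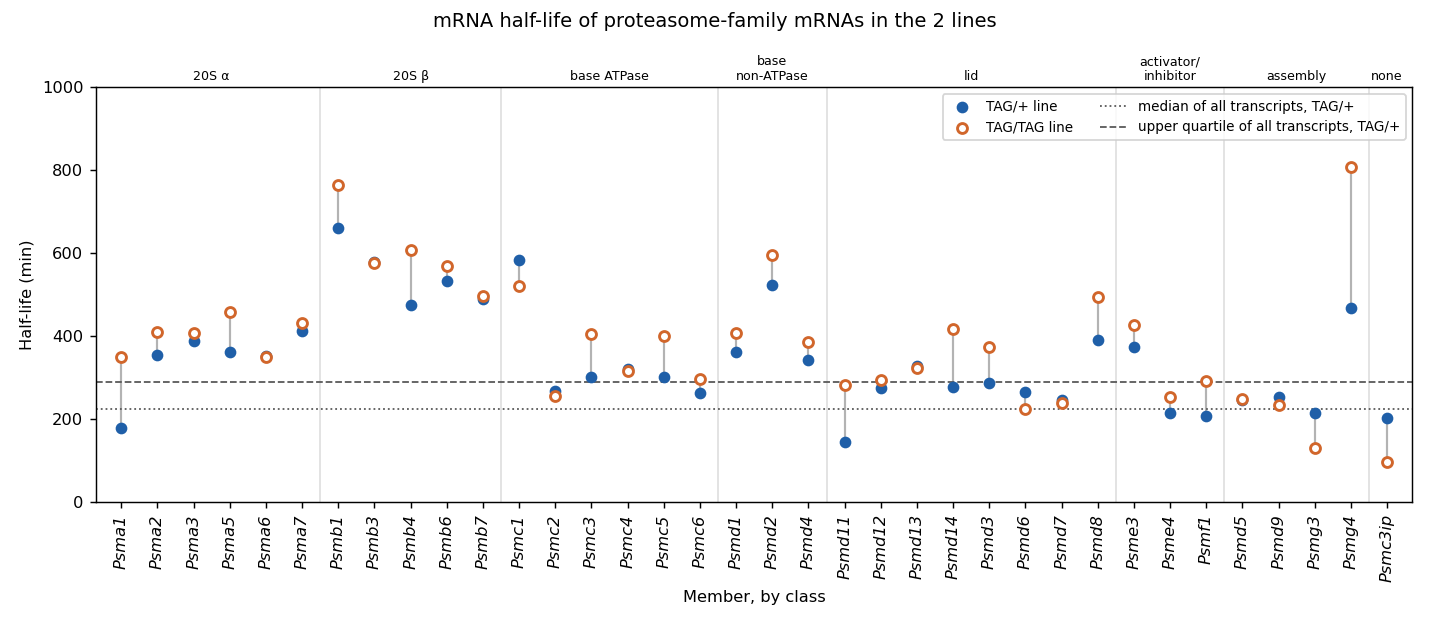
Half-life in minutes (vertical axis) of the 36 members with SLAM-seq values, in class order, with 1 fitted value per line and a grey bar joining both lines. All β subunits lie above the dashed upper quartile of all transcripts, and the longest bars are those of *Psmg4*, *Psma1*, *Psmd14* and *Psmd11*.

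Among the alternative caps of the core, *Psme3*, the nuclear activator, had the highest deposited FPKM of all members in both lines, at 379 in the TAG/+ line and 469 in the TAG/TAG line (1.24-fold higher, 1.19 to 1.29). *Psme1*, a subunit of the interferon-inducible activator, was second in both lines, at 299 and 332 FPKM. With the coding length *Psme1* was the highest (218 and 242), and *Psme3* (151 and 187) was also below *Psmb2* (209.7 and 230.2). *Psme4*, the activator linked to histone degradation in spermatogenesis, had 53.1 and 43.7 FPKM, and the inhibitor *Psmf1* 27.2 in the TAG/+ line and 1.06-fold that in the TAG/TAG line (0.96 to 1.18). Half-lives of *Psme3* were 373 and 427 min. Those of *Psme4* (213 and 252 min) and *Psmf1* (207 and 291 min) were below the median of all transcripts in the TAG/+ line and above it in the TAG/TAG line.

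Assembly chaperones, which help to build the particle and are no part of its finished form, were lower in FPKM than most subunits, with class medians of 17.5 and 15.1. *Psmd5*, a chaperone of the base, was the highest, at 81.5 and 47.1 FPKM, and was 1.73-fold lower in the TAG/TAG line (1.604 to 1.87). *Psmg3*, a chaperone of the core, had 6.23 and 2.61 FPKM, 2.39-fold lower in the TAG/TAG line on 91 and 41 reads (1.63 to 3.54). *Psmg4*, another core chaperone, had 18.5 and 19.0 FPKM, and *Psmd9*, of the base, 16.4 and 11.1. The core chaperones went apart in half-life: *Psmg4* had 468 and 808 min, 1.73-fold longer and the longest member in the TAG/TAG line, whereas *Psmg3* had 215 and 128 min, 1.67-fold shorter. *Psmd5* (244 and 248 min) and *Psmd9* (253 and 234 min) stayed close to the median of all transcripts.

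*Psmc3ip*, which is no proteasome gene, went against most members in both measures. It had 8.32 and 18.04 FPKM (93 and 217 reads, 2.17-fold higher in the TAG/TAG line, 1.69 to 2.80) and half-lives of 201 and 95.2 min (2.11-fold shorter), the shortest of the matched symbols in the TAG/TAG line.

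Over all members, FPKM was lower in the TAG/TAG line for 27 of 40 (67.5%), where 49.5% of all genes were lower. The median log2 difference was -0.21, against 0.0089 over all genes, whose quartiles were -0.44 and 0.51, so that the typical member lay within the middle part of all genes. Past 2-fold lower were 3 members (7.5%), *Psma3*, *Psmd14* and *Psmg3*, where 9.59% of genes were, and past 2-fold higher were 2 (5%), *Psmb11* and *Psmc3ip*, where 13.5% of genes were. The share past 2-fold was thus no higher among members than among all genes.

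The size of the difference went with FPKM among the constitutive subunits, a pattern noticed in these values and given as a description. Of the 14 with the lowest mean FPKM, 14 were lower in the TAG/TAG line, with a median log2 difference of -0.49, while 7 of the 14 with the highest mean FPKM were lower, with a median of -0.025. The 10 with a mean FPKM over 100 differed by -0.52 (*Psmc1*) to 0.13 (*Psmb2*) on the log2 scale, with 4 lower and a median of 0.032. Of all genes, 49.5% were lower, as were 53.0% of the 5525 genes between the 10th and 90th percentiles of the members' mean FPKM. Spearman's rho between mean FPKM and log2 difference was 0.72 across the 29 constitutive subunits, 0.78 across the 21 of them with at least 90% unique 50-base words, 0.67 across the 29 with the coding length (a setting chosen after seeing the data), and 0.012 across the 6474 genes in the same FPKM range. Across all 40 members with an FPKM the rho was lower, at 0.44, and across all 13904 genes it was -0.091. These points share both libraries, and the same FPKM values enter both axes.

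**Figure D3:**
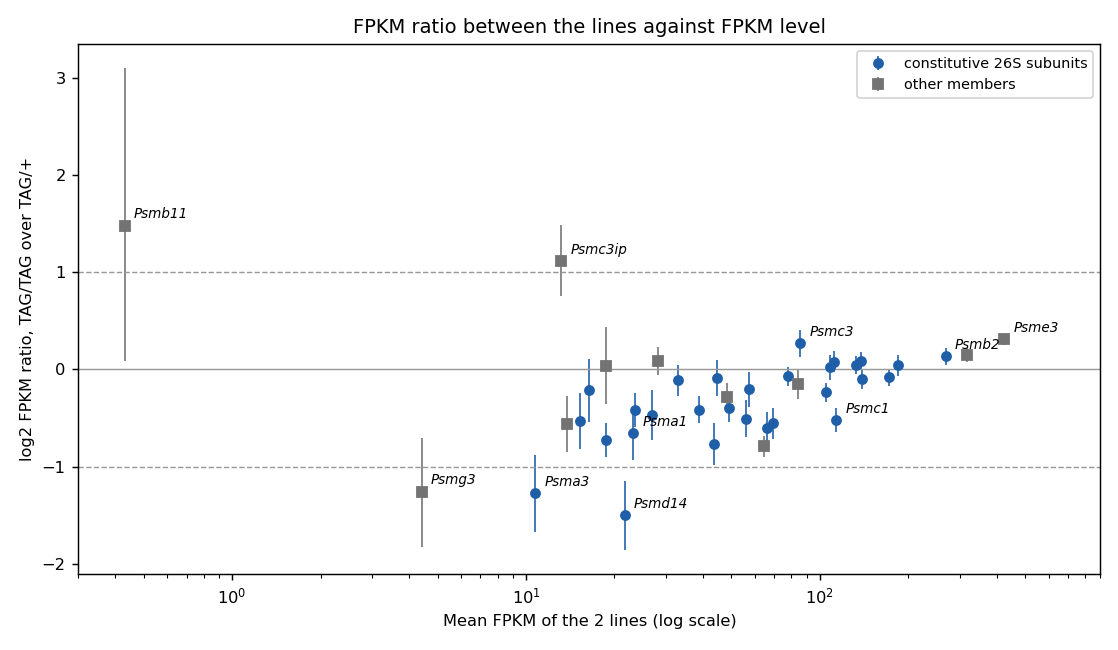
Log2 ratio of FPKM, TAG/TAG over TAG/+ (vertical axis), against the mean FPKM of both lines (horizontal axis, log scale) for the 40 members, with 95% counting intervals as bars and dashed lines at a 2-fold difference. The 14 constitutive subunits of lowest mean FPKM lie below 0, the 10 with a mean over 100 FPKM lie between -0.52 and 0.13, and *Psmb11* (6 and 18 reads) has the widest interval.

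Half-lives of the members as a whole were long. Medians were 323 min in the TAG/+ line and 392 min in the TAG/TAG line, above 82.4% and 86.8% of all transcripts. In both lines 29 of 36 members (80.6%) were above the median of all transcripts, where 39.8% of transcripts were, and 21 (58.3%) were above the upper quartile (289 and 300 min), where 19.1% were. The 4662 transcripts with a mean FPKM between those of the lowest and the highest member had medians of 227 and 229 min. The order of the members was shared by the lines, with a rho of 0.90 across 36 members (0.77 across all transcripts).

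Between the lines, half-life was longer in the TAG/TAG line for 25 of 36 members (69.4%), where 54.1% of transcripts were longer, with a median log2 difference of 0.17 against 0.037. Past 1.5-fold longer were 4 members (11.1%), *Psma1*, *Psmd11*, *Psmd14* and *Psmg4*, where 10% of transcripts were, and past 1.5-fold shorter were 2 (5.56%), *Psmg3* and *Psmc3ip*, where 10.7% were. These shares were near those of all transcripts. Across the 34 members with both measures, the log2 differences of FPKM and of half-life had a rho of 0.27 (0.0038 across 5152 transcripts), and *Psmd14* and *Psma1* lay against such a relation, with lower FPKM and longer half-lives in the TAG/TAG line.

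Members with higher FPKM had longer half-lives, with a rho of 0.49 between the means of both lines across 34 members, and 0.51 across all 5152 transcripts. *Psmd11* combined 171 FPKM on average with a mean half-life of 213 min, and *Psmg4* 18.8 FPKM on average with a mean half-life of 638 min. Half-life fell with 3′ UTR length, with a rho of -0.38 across 36 members and -0.28 across 5762 transcripts. The 29 members with 3′ UTRs below the median of all had median half-lives of 326 and 400 min, against 246 and 249 min for all transcripts below it, and the 7 others had 253 and 291 min, against 206 and 209 min. Members with a match to the NANOS2 consensus had medians of 246 and 291 min and those without 326 and 400 min, and for all transcripts these were 196 and 199.8 min with and 245 and 247 min without. Matches and 3′ UTR length go together, and their parts were not separated here.

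**Figure D4:**
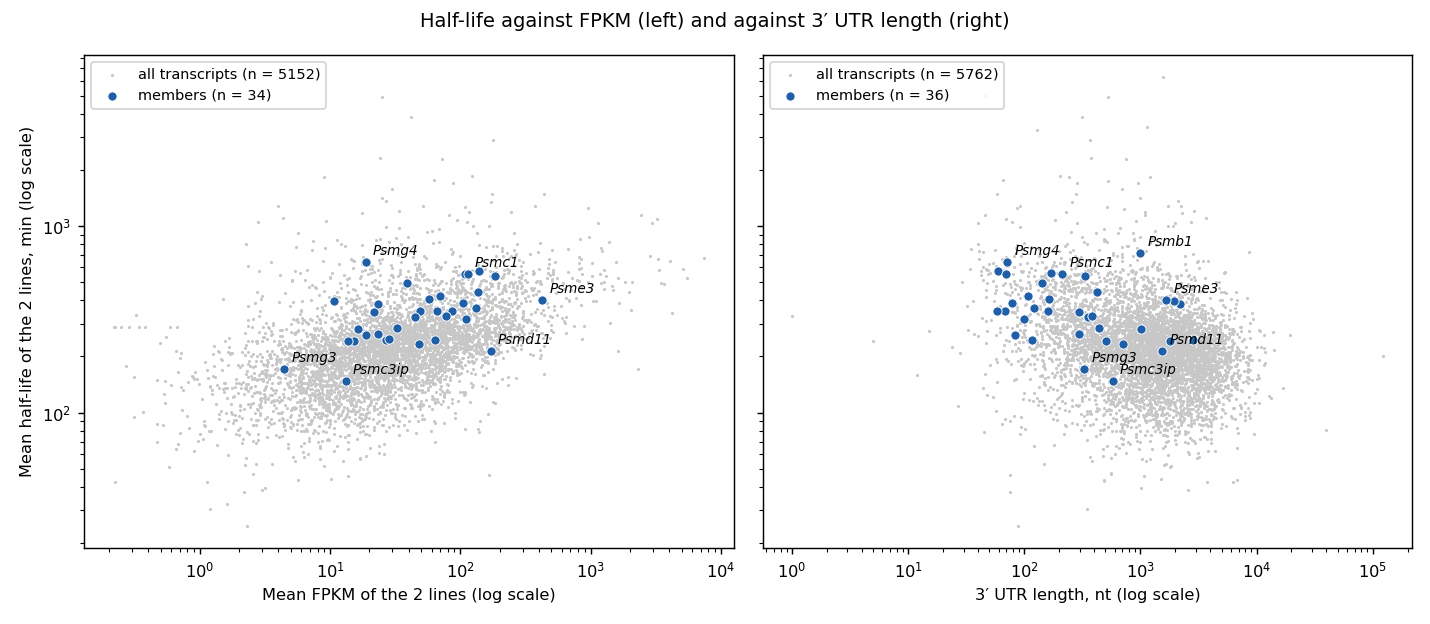
Mean half-life of both lines in minutes (vertical axis, log scale) against mean FPKM (left, log scale) and against 3′ UTR length in nucleotides (right, log scale), with members as large points over all transcripts as small grey points. Members lie mostly in the upper part of the cloud at their FPKM, and 29 of 36 have 3′ UTRs shorter than the median of all transcripts (1219 nt).

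Other genes of the pathway, which the naming rule does not catch, went in both directions. Of 37 listed genes for further subunits, bound factors, ubiquitin shuttles, regulators, the segregase, ubiquitin supply and antigen presentation, 31 had an FPKM. Of these, 16 were lower and 15 higher in the TAG/TAG line, where 49.5% of all genes were lower. Their median log2 difference was -0.043. Past 2-fold higher were 2 and past 2-fold lower 0, where 13.5% and 9.59% of all genes were. The lists differed, with medians of -0.31 for further subunits and assembly (3 genes), -0.58 for bound factors (3), 0.14 for shuttles (6) and 0.35 for regulators (4), and their difference from the members was not tested. The 2 past 2-fold were *Nlrc5* and *Ubqln2*, a shuttle for ubiquitinated proteins with 4.28 and 12.02 FPKM. The remaining 19S subunits went in both directions: *Adrm1*, a ubiquitin receptor, had 97.4 and 126 FPKM, and *Sem1*, which tethers the lid, 5.66 and 4.53. *Pomp*, which guides β-ring assembly, had 25.5 and 20.5. *Nfe2l1*, the regulator of proteasome genes, had 118 and 149 FPKM, a log2 difference of 0.33 that lay within the quartiles of all genes. Of 29 constitutive subunits, 22 were lower in the TAG/TAG line, where 49.5% of all genes were, and a link to *Nfe2l1* was not tested. *Uchl5*, a deubiquitinase bound at the base, had 33.7 and 17.7 FPKM. Of the 25 with half-lives, 20 were above the median of all transcripts in both lines, where 39.8% of transcripts were. Past 1.5-fold longer were 2 and past 1.5-fold shorter 2, where 10% and 10.7% of transcripts were.

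Beside the other large cytosolic machines compared here, proteasome mRNAs had the smallest median difference between the lines in FPKM and the largest in half-life. In FPKM, the median log2 difference was -0.93 over 80 cytosolic ribosomal protein genes, 76 of which were lower in the TAG/TAG line. It was -0.50 over 6 genes of the CCT chaperonin, which folds actin and tubulin, and -0.21 over the 40 members (with *Psmc3ip*). In half-life the order of sets was ribosomal protein mRNAs (medians of 595 and 606 min over 58), CCT mRNAs (468 and 473 min over 8) and proteasome mRNAs (323 and 392 min over 36). The median log2 difference in half-life was 0.052 for ribosomal protein, 0.074 for CCT and 0.17 for proteasome mRNAs, against 0.037 over all transcripts. These sets share the same libraries, and the difference between them was not tested.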

How the data were processed

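RNA-seq libraries were made from ribosomal RNA-depleted RNA and read in single-end runs, and the authors deposited FPKM values per gene. The submitters' processing notes name kallisto and DESeq2, and the build and annotation for RNA-seq are not given in the sources used here. Half-lives in minutes were deposited by the authors, who used SlamDunk and a first-order decay fit in R, without errors or depth. They were assigned to lines by genotype in the file names. Log2 differences of FPKM used a pseudocount of 0.1. Fold values are ratios of the deposited FPKM. Calls were past 2-fold (FPKM) and 1.5-fold (half-life). Reads were recovered with the mean transcript length per gene in GENCODE M21, and counting intervals are exact Clopper-Pearson intervals at 95%. The code for the recovery and the fold calls was run on simulated reads, which checks the code only. The error of the calls at low read counts, as in *Psmb11*, *Psmg3*, *Psma3* and *Psmd14*, was not tested. Uniqueness used 50-base words every 10 bases. The members, classes and gene lists were chosen with earlier results of these data known. Every member was named, by class. CRAC libraries were not analysed here. Alternatives changed the pseudocount, the fold limits, a minimum FPKM, centring, the member set, the background and the gene length. Analyses used Python 3.11.15, numpy 2.4.6, pandas 2.3.3 and scipy 1.17.1.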

Additional observations from a re-analysis of the deposited data

How the results depend on the processing

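No paired analysis was possible because each line had 1 RNA-seq library and 1 half-life per transcript, and for the same reason no replicate could be left out. Of 105 recomputed values, 81 stayed within 1.5-fold (counts), within 0.1 (log2 differences and rho) or within 1 SD of the lines' values (levels and percentiles). Some of the 81 could not change with their setting, such as medians under another fold limit or counts by any size under another pseudocount. Members past 2-fold higher in the TAG/TAG line numbered 1 with a pseudocount of 1, with both FPKM at 1 or above, without *Psmc3ip* or among genes in the members' range of transcript length, and 0 among constitutive 26S subunits or genes in the members' FPKM range. Those lower were 8 at a limit of 1.5-fold and 1 in the members' FPKM range. The median log2 difference of members was -0.31 in the members' length range, and that of all genes was -0.016 with FPKM of at least 1 and -0.037 in the FPKM range. At a limit of 2-fold in half-life, 0 members were longer and 1 shorter, and 0 constitutive subunits were past 1.5-fold shorter. The percentile of the members' median FPKM was 75.6 in the TAG/TAG line with FPKM of at least 1. Against genes with a half-life it was 67.9 (TAG/+) and 62.0 (TAG/TAG), with 35.3% of members above the upper quartile in both lines. With the coding transcript's length, median FPKM was 43.6 and 32.4 and the percentiles 87.1 and 82.6. The percentile of the members' median half-life in the TAG/+ line was 85.6 for constitutive subunits and 79.1 with both half-lives at most 540 min. The settings on FPKM range, length range, unique words and coding length were chosen after seeing the data. Each difference rests on 1 library or fitted value per line, and counting intervals were widest for *Psmb11*, *Psmg3*, *Psma3* and *Psmg4*.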
